A study of Mus musculus with 6 samples.

Results

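Glycosyltransferase genes of mucin-type O-glycans and of N-glycans were followed from mammary gland to mammary tumour in mice that carry LINK-A, a long non-coding RNA, as a transgene. This group of genes was chosen with earlier results of these data known, and its members were then picked by name. Every symbol in the deposited table was taken that starts with Galnt, B3gnt, B4galt, B3galt, St3gal, St6gal, St6galnac, St8sia, Fut, Mgat or Gcnt followed by a number. There were 81 such symbols of 24421, among them the pseudogene Fut4-ps1 and the antisense RNA St8sia3os, which by name encode no enzyme. The 3 gland libraries came from donors labelled FVB/NJ; Tg(LINK-A), and the 3 tumour libraries from tumour-bearing donors labelled FVB/NJ; MMTV-Tg(LINK-A). All donors were females aged 5 months, and total RNA of whole, flash-frozen tissue was sequenced. MMTV, named for the tumour donors only, is the mouse mammary tumour virus promoter, which is active in mammary epithelium and in some other cells. Donor genotype and tissue differ together in the labels, so their effects cannot be told apart. The labels do not state whether libraries of a group are separate animals, and p-values measure only the spread between libraries, which may be technical.

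These enzymes sit in the Golgi and each adds a particular sugar in a particular linkage. Galnt enzymes start mucin-type O-glycans by placing N-acetylgalactosamine on serine or threonine, and Gcnt enzymes branch them. Mgat enzymes build the branches of N-glycans, B4galt, B3galt and B3gnt enzymes lengthen chains with galactose and N-acetylglucosamine, and fucosyltransferases and sialyltransferases cap them. In the mammary gland they decorate the mucins of the apical surface and of milk, and B4galt1 together with alpha-lactalbumin makes lactose.

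Upstream sequences of 4 genes are shown as examples, chosen after values and sequences were seen, of genes that changed by more than 1 on the log2 scale and whose 250 bases before a start hold no annotated exon of any gene. Windows of B3galt5, B3gnt3, B4galt3, Galnt9, St3gal6 and St8sia4 and a second window of Mgat4a met these criteria too and are not printed. Of the 12 windows of the 10 genes, 8 held a GC box and 2 (the second windows of Mgat4a and Galnt9) held none of the motifs searched. Galnt7, Mgat4a and St6galnac4 were higher in the tumours and St3gal3 was lower. Capitals mark a GC box, CCAAT box, STAT core or hypoxia element core on either strand. Sequences are from RefSeq on GRCm38.p6, 5′ to 3′ on the strand of the gene. They lie at chr8:57653056-57653305 (minus strand, Galnt7), chr1:37541017-37541266 (minus strand, Mgat4a), chr2:32586828-32587077 (plus strand, St6galnac4) and chr4:118134947-118135196 (minus strand, St3gal3).
Galnt7: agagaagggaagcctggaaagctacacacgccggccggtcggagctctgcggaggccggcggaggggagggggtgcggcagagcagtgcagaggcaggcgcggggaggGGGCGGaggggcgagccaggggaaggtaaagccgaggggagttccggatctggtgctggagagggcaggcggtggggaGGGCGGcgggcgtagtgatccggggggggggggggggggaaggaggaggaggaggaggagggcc
Mgat4a: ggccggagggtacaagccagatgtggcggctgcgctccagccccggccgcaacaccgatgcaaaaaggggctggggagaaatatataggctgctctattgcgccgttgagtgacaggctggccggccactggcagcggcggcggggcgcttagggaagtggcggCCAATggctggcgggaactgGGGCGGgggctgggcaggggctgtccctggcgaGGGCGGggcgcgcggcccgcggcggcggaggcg
St6galnac4: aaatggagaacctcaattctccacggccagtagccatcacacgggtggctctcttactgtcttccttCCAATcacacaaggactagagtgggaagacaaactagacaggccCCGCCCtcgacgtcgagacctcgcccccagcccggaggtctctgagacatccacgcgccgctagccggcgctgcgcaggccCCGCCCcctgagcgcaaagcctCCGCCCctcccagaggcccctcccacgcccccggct
St3gal3: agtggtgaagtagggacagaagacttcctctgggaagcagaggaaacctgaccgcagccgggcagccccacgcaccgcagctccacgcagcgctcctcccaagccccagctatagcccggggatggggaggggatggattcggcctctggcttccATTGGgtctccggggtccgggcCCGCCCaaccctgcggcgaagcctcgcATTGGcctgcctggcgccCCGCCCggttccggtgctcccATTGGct

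The GC box, searched as GGGCGG, was in 50% of windows of genes that rose, 40% of those of genes that fell and 47.8% of those that did not pass, beside 32.7% of all windows. The base composition of these windows was not that of all windows: their median GC content was 63%, 60.4% and 59.2% in this order, beside 52.4% of all windows, and its part in the GC box shares was not tested. The CCAAT box, searched by those letters, was in 18.2% of windows of genes that rose, 33.3% of those of genes that fell and 39.1% of those that did not pass, beside 33.9% of all windows. The STAT core, searched as TTCNNNGAA, was in 13.6% of windows of genes that rose, 0% of those of genes that fell and 4.35% of those that did not pass, beside 7.02% of all windows, and the matches among genes that rose were in B3galt5, B4galt1 and Mgat2. The hypoxia element core, searched as ACGTG, was in 22.7% of windows of genes that rose, 13.3% of those of genes that fell and 13% of those that did not pass, beside 16.6% of all windows. These shares rest on 22, 15 and 23 windows, some of them several starts of the same gene, and all 32841 windows have the same length. A match is a run of letters and not a measured binding site. Windows were found for 58 of the 81 genes.

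Levels are taken as FPKM, though the deposited values name no unit. FPKM scales fragments by transcript length and by library size, so that genes of different length can be set side by side. The FPKM of a library summed to between 486080 and 582996. Read totals were not used here, so the depth behind a value is unknown. Luminal epithelial markers were higher in the tumours for 11 of 11 genes, and their summed level was 1182 to 1256 FPKM in glands against 3164 to 3571 in tumours. Markers of adipocytes (6794 to 8189 against 89.8 to 292 FPKM), endothelium (239 to 282 against 24.9 to 51.9) and fibroblasts (2021 to 2186 against 129 to 459) were lower for 9 of 9, 8 of 8 and 8 of 8 genes. Basal markers were lower for 5 of 9 genes (626 to 674 against 116 to 327 FPKM). Nerve markers were higher for 2 and lower for 4 of 6, and their sum was higher in every tumour (104 to 129.9 against 138 to 249 FPKM). Macrophage and granulocyte markers were higher for 1 and lower for 4 of 8, with 923 to 1061 FPKM in glands and 3636, 2279 and 476 in tumours 1 to 3. Gland 2 stood apart: its B cell markers summed to 24.8 FPKM against 156 and 162 in glands 1 and 3, and its skeletal muscle markers to 12989.7 against 16.1 and 1156, and 0 of 8 muscle genes passed. No marker of the 10 lists was at 0 in all tumours. Fewer cells of a type and less RNA per cell cannot be told apart in whole tissue, and the part of these cells in the results below was not tested.

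**Figure D1:**
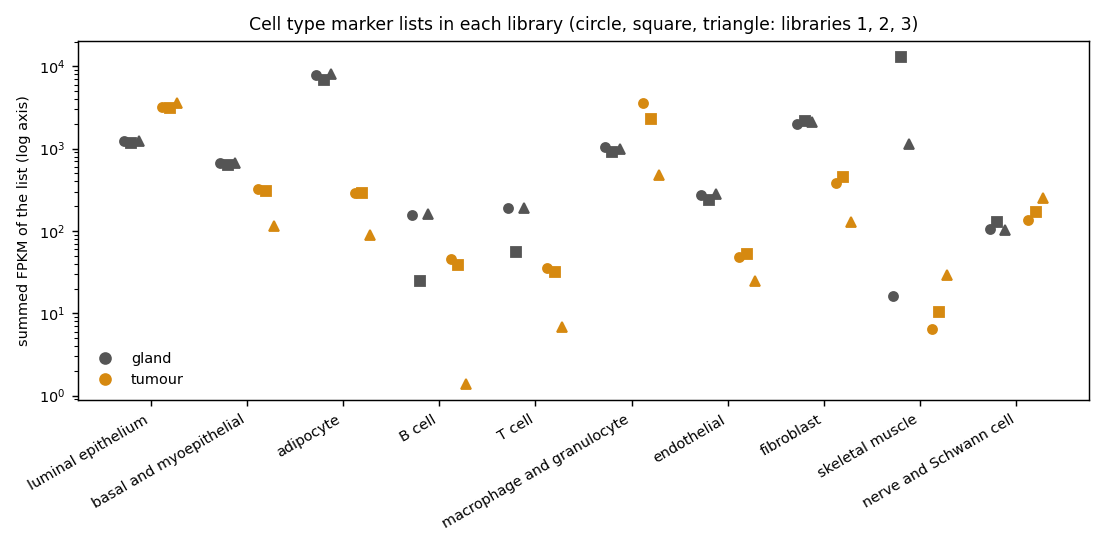
Summed FPKM (log axis) of 10 cell type marker lists in each gland and tumour library. Luminal markers are higher in all 3 tumours, adipocyte, endothelial and fibroblast markers are lower, and gland 2 is high in muscle and low in B cell markers.

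Of the 81 genes, 7 were listed at 0 in all libraries, 21 others had a mean under 1 FPKM, and 53 were tested on log2(FPKM + 1). At an adjusted p under 0.05 (limma, Benjamini-Hochberg adjustment over 13364 genes), 16 were higher and 16 lower in the tumours and 21 did not pass. The called share was 60.4%, beside 45.1% of all tested genes, with 30.2% higher beside 21.9% and 30.2% lower beside 23.1%. Calls of at least 2-fold were made for 11 genes higher and 13 lower, or 20.8% and 24.5%, beside 7.67% and 14.5% of all tested genes. All 3 tumours lay above all 3 glands in 19 of the 53 and below them in 17, and these shares of all tested genes were 29.3% and 29.0%. The median log2 fold change was -0.03, beside 0.008 over all tested genes. The 2 directions were mixed within enzyme families: 8 of the 11 families held both a gene that rose and a gene that fell. The St6gal family had 1 tested gene and could not hold both. How often sets of other genes of the same size are mixed was not tested.

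**Figure D2:**
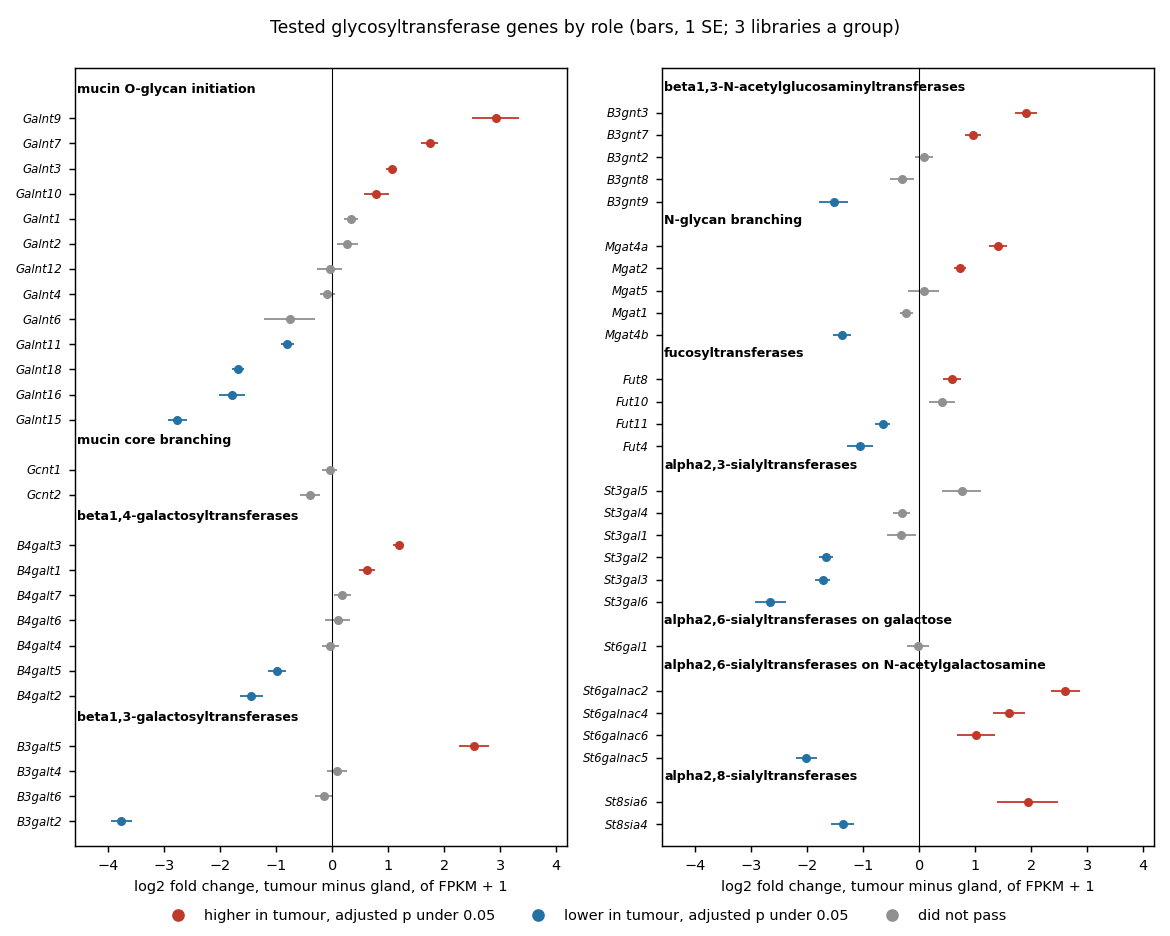
Log2 fold change of FPKM + 1, tumour minus gland, of the 53 tested glycosyltransferase genes by enzyme family, with bars of 1 SE from 3 libraries a group. Genes called higher and genes called lower stand side by side in 8 of the 11 families.

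Among the 13 tested Galnt genes, which start mucin O-glycans, Galnt3, Galnt7, Galnt9 and Galnt10 rose and Galnt11, Galnt15, Galnt16 and Galnt18 fell. Galnt7, which prefers peptides that already carry N-acetylgalactosamine, was at 6.1, 5.82 and 6.23 FPKM in glands 1 to 3 and 19.7, 20.8 and 27.8 in tumours 1 to 3. Every tumour was above every gland, and the log2 difference was 1.74 (SE 0.15, limma adjusted p = 0.000203). Galnt3, known for glycosylating the phosphate hormone Fgf23, was at 15.2, 13.6 and 14.2 FPKM in glands and 30.9, 31.1 and 30.8 in tumours. Its tumour values were nearly equal, and the groups stood well apart (1.06, SE 0.09). Galnt9, best known from brain, was at 0.304, 0.112 and 0.218 FPKM in glands and 5.53, 5.33 and 17.4 in tumours. Gland levels were near 0 and tumour 3 was the highest library (2.92, SE 0.41, adjusted p = 0.00157, and 2.41 without tumour 3). Galnt10, like Galnt7 an enzyme of partly glycosylated peptides, rose from 10.8 ± 0.798 to 19.96 ± 6.94 FPKM (mean ± SD, n = 3 libraries, here and below), by 0.79 (SE 0.23, adjusted p = 0.0272). That call was lost without any 1 gland, without tumour 2 or at a common sum per library (adjusted p = 0.0554 to 0.0833). In all, 6 of 16 alternatives ended that call, and the lowest adjusted p among them all was 0.00242.

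Galnt15 was at 7.26, 6.92 and 6.45 FPKM in glands and 0.34, 0.153 and 0 in tumours. It was close to absent in the tumours, and the log2 difference was -2.77 (SE 0.17, adjusted p = 6.88e-05). Galnt16 was at 4.83, 5.21 and 5.07 FPKM in glands and 0.779, 1.31 and 0.298 in tumours (-1.79, SE 0.23). Galnt18 was at 20.5, 19.95 and 20.4 FPKM in glands and 5.73, 5.29 and 5.84 in tumours (-1.68, SE 0.10, adjusted p = 6.09e-05). The groups did not overlap in these 3 genes, and the Galnt18 libraries of a group were within 1 FPKM of each other. Galnt11 fell by 0.80 (SE 0.11). The family's broadly expressed enzymes did not pass. Galnt1 was at 31.3 ± 1.42 and 39.8 ± 5.89 FPKM (adjusted p = 0.0742), with every tumour above every gland. Galnt2 was at 35.1 ± 1.49 and 43.5 ± 12.5 FPKM (adjusted p = 0.293), with overlapping groups. Galnt7 made up 3.92% ± 0.0387 of the summed FPKM of the family in glands and 12.04% ± 0.264 in tumours, and Galnt18 13.1% ± 0.258 and 3.03% ± 0.435. Galnt4, Galnt6 and Galnt12 did not pass either. Galnt6 was at 3.21 and 3.64 FPKM in glands 1 and 3 but 0.454 in gland 2. It passed as lower without gland 2 (-1.30, adjusted p = 0.00562) and with array weights (range 0.00562 to 0.769). Gland 2 was low in B and T cell markers and high in muscle markers, and their part here was not tested. Galnt5, Galnt13 and Galnt14 were under the filter.

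The Gcnt enzymes branch mucin cores and lactosamine chains, and neither tested gene was called. Gcnt1, the core 2 enzyme, was at 10.96, 9.88 and 10.4 FPKM in glands and 8.22, 10.9 and 11.1 in tumours, with overlapping groups (-0.05, SE 0.14, adjusted p = 0.802). Gcnt2, the I-branching enzyme, was at 5.58 ± 0.716 and 4.01 ± 0.938 FPKM (adjusted p = 0.108). It passed as lower without tumour 1 (adjusted p = 0.0438, 0.0438 to 0.674 over its alternatives). Gcnt4 was under the filter with 1.63, 1.44 and 1.39 FPKM in glands and 0.416, 0.201 and 0.137 in tumours, groups that did not overlap. Gcnt7 was under the filter as well, and Gcnt3, the branching enzyme of mucin-secreting tissues, was listed at 0.

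**Figure D3:**
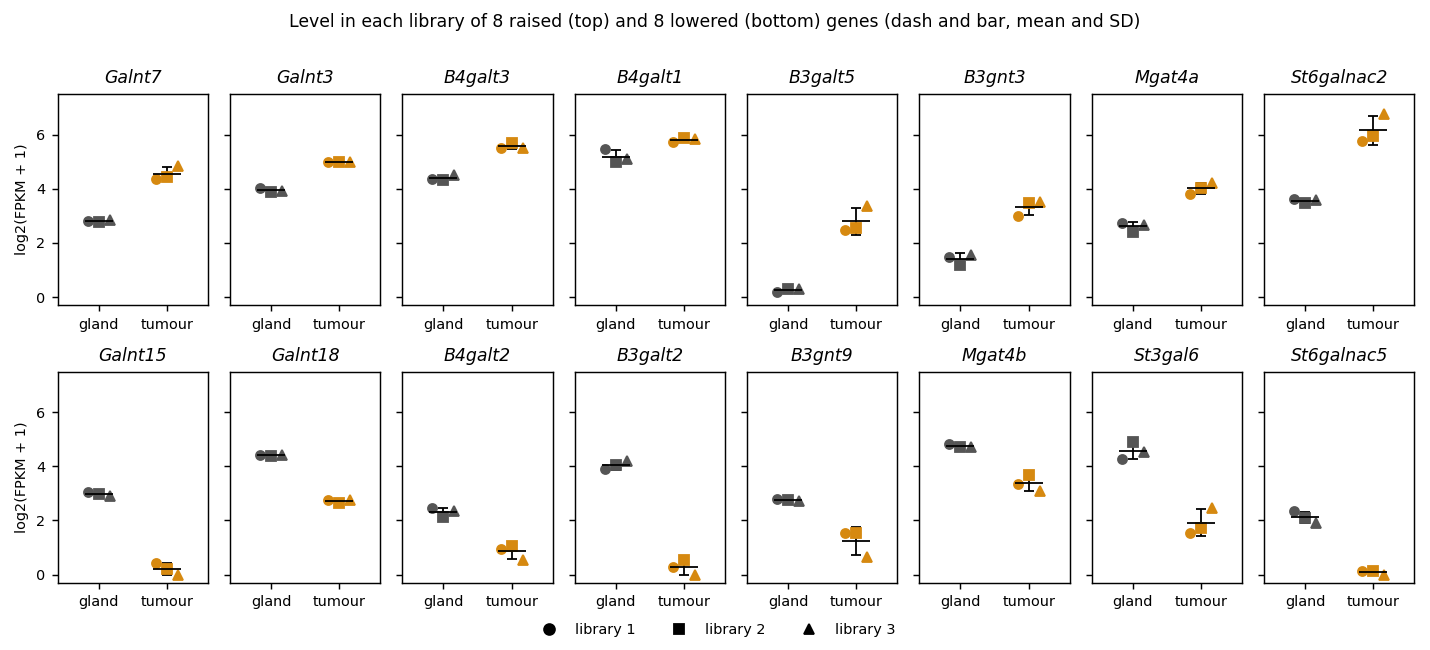
Log2(FPKM + 1) in each library for glycosyltransferase genes that rose (top row) and that fell (bottom row), with the mean and SD of 3 libraries a group. Gland and tumour libraries do not overlap in any panel.

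Among the B4galt genes, whose products add galactose, B4galt1 and B4galt3 rose and B4galt2 and B4galt5 fell. B4galt1, the catalytic partner in lactose synthesis, was at 43.7, 31.1 and 33.04 FPKM in glands and 51.4, 57.5 and 56.5 in tumours. All tumours were above all glands (0.62, SE 0.15, adjusted p = 0.0131). The call was lost without gland 3 (adjusted p = 0.0568) or tumour 2 (0.0501), with 0.00373 to 0.0568 over its alternatives. Its partner Lalba, alpha-lactalbumin, rose from 55.96 ± 12.9 to 1629.6 ± 301 FPKM (4.85, SE 0.21). B4galt3, a lactosamine enzyme, was at 19.7, 18.8 and 21.6 FPKM in glands and 44.8, 50.6 and 44.9 in tumours, well apart (1.18, SE 0.10, adjusted p = 0.000232). Of its exon bases 14.5% overlap Ppox on the other strand, which was at 14.2 ± 1.29 and 16.1 ± 1.18 FPKM. The sources used here do not say whether counting used the strand, so reads of overlapping genes may be mixed.

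B4galt2 was at 4.48, 3.33 and 4.07 FPKM in glands and 0.95, 1.11 and 0.441 in tumours, all tumours lower (-1.45, SE 0.21). Its exons overlap Ccdc24 and Slc6a9 over 28.2% of their bases, and Slc6a9 was at 2.86 ± 0.189 and 1.44 ± 0.414 FPKM. B4galt5, a lactosylceramide synthase, fell from 4.69 ± 0.438 to 1.88 ± 0.388 FPKM (-0.99, SE 0.16). B4galt6, the other lactosylceramide synthase, did not pass (adjusted p = 0.744). B4galt7, an enzyme of the proteoglycan linker, and B4galt4 did not pass either, with adjusted p = 0.362 and 0.877. B4galt3 made up 24.1% ± 2.28 of the family's summed FPKM in glands and 37.4% ± 1.29 in tumours, and B4galt1 42.8% ± 4.32 and 44.01% ± 0.976.

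B3galt2 led the B3galt genes in all 3 glands and was a minor member in all 3 tumours. Several of these enzymes add galactose in the linkage of type 1 chains or of glycolipids. B3galt2 was at 13.8, 15.4 and 17.6 FPKM in glands and 0.203, 0.47 and 0 in tumours. It was close to absent in every tumour, and its log2 difference of -3.77 (SE 0.19, adjusted p = 3.07e-05) was the lowest of the 53 tested genes. B3galt5, an enzyme of type 1 chains, was at 0.154, 0.227 and 0.223 FPKM in glands and 4.58, 4.8 and 9.31 in tumours. Here the glands were near 0 (2.53, SE 0.26, adjusted p = 0.00044). B3galt2 thus made up 63.4% ± 2.07 of the family's summed FPKM in glands and 1.76% ± 1.95 in tumours, and B3galt5 0.818% ± 0.14 and 43.4% ± 13.9. B3galt4 made up 18.9% ± 1.38 in glands and 35.9% ± 8.52 in tumours. In tumours 1 to 3 B3galt4 held 44.2%, 36.4% and 27.2% and B3galt5 32.0%, 39.3% and 58.8%, so B3galt4 led in tumour 1 and B3galt5 in tumours 2 and 3. The exons of B3galt2 overlap Cdc73 on the other strand over 7.31% of their bases, and Cdc73 was at 12.2 ± 1.08 and 21.2 ± 2.45 FPKM. B3galt4, a ganglioside enzyme, and B3galt6, an enzyme of the proteoglycan linker, did not pass (adjusted p = 0.73 and 0.475). B3galt1 was under the filter, with 1.06, 1.29 and 1.21 FPKM in glands and 0.135, 0.115 and 0 in tumours.

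Among the B3gnt genes, whose products add N-acetylglucosamine to galactose, B3gnt3 and B3gnt7 rose and B3gnt9 fell. B3gnt3, which extends core 1 O-glycans, was at 1.79, 1.27 and 1.97 FPKM in glands and 6.88, 10.1 and 10.4 in tumours, all tumours higher (1.91, SE 0.20, adjusted p = 0.000443). B3gnt7, an enzyme of keratan sulfate chains, rose from 2.84 ± 0.38 to 6.49 ± 0.652 FPKM (0.97, SE 0.14). B3gnt9 was at 5.99, 5.73 and 5.61 FPKM in glands and 1.89, 1.88 and 0.561 in tumours, lowest in tumour 3 (-1.53, SE 0.26, adjusted p = 0.00344). Its exons overlap D230025D16Rik over 16.5% of their bases, which was at 9.37 ± 1.07 and 8.53 ± 1.11 FPKM. B3gnt2, an extender of lactosamine chains, was at 8.7 ± 1.69 and 9.2 ± 0.996 FPKM and did not pass (adjusted p = 0.703). B3gnt8 did not pass, and B3gnt4, B3gnt5 and B3gnt6 were under the filter.

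On N-glycans, Mgat2 and Mgat4a rose and Mgat4b fell, while the family's summed level was 90.3 ± 4.92 FPKM in glands and 101 ± 4.28 in tumours. Mgat1, which starts the first branch, was at 25.9, 22.3 and 25.4 FPKM in glands and 18.8, 22.2 and 21.3 in tumours and did not pass (-0.23, SE 0.11, adjusted p = 0.136). Mgat2, which starts the second branch, was at 30.6, 29.2 and 32.5 FPKM in glands and 55.5, 45.99 and 53.7 in tumours, without overlap (0.73, SE 0.11, adjusted p = 0.00208). Mgat4a and Mgat4b encode isoenzymes for the same further branch. Mgat4a was at 5.75, 4.29 and 5.35 FPKM in glands and 12.9, 15.1 and 17.8 in tumours (1.41, SE 0.16, adjusted p = 0.00063). Mgat4b was at 27.2, 25.4 and 25.02 FPKM in glands and 9.12, 11.8 and 7.54 in tumours (-1.38, SE 0.16, adjusted p = 0.000688). The isoenzymes moved in opposite directions, and the groups overlapped in neither. Mgat4b made up 28.7% ± 1.45 of the family sum in glands and 9.45% ± 2.43 in tumours, and Mgat4a 5.66% ± 0.539 and 15.1% ± 1.87. Mgat5, the branching enzyme long studied in metastasis, was at 3.08 ± 0.615 and 3.45 ± 1.61 FPKM and did not pass (adjusted p = 0.839). Mgat3, which makes the bisecting branch, was under the filter with 0.775, 1.06 and 0.968 FPKM in glands and 0.126, 0.33 and 0.25 in tumours. Mgat5b was under the filter too, and Mgat4c, Mgat4d and Mgat4e were listed at 0.

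Of the fucosyltransferases, Fut8 rose and Fut4 and Fut11 fell. Fut8, the core fucose enzyme of N-glycans, was at 10.8, 9.76 and 10.7 FPKM in glands and 13.8, 14.6 and 20.5 in tumours, highest in tumour 3 (0.58, SE 0.16, adjusted p = 0.0246). The call was lost without any 1 gland and at a common sum per library (adjusted p = 0.0621 to 0.0886), with 0.00442 to 0.207 over its alternatives. Fut4, an enzyme of the Lewis x epitope, was at 2.31, 1.29 and 2.01 FPKM in glands and 0.388, 0.63 and 0.128 in tumours, lowest of the glands in gland 2 (-1.05, SE 0.24, adjusted p = 0.0106). Quantile normalization ended that call (log2 fold change -0.40, adjusted p = 0.168, range 0.00232 to 0.168). Fut11 fell from 7.24 ± 0.0642 to 4.26 ± 0.62 FPKM (-0.65, SE 0.13). Fut10 did not pass (adjusted p = 0.186), but passed as higher under quantile normalization (adjusted p = 0.0163, range 0.0163 to 0.486). Fut1 and Fut2, enzymes of the H antigen, Fut7, an enzyme of selectin ligands, Fut9 and Fut4-ps1 were under the filter.

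Sialyltransferases are taken by the sugar they act on. Of the 6 St3gal genes, which link sialic acid to galactose, 3 fell, none rose and 3 did not pass. St3gal6, an enzyme of lactosamine chains, was at 18.5, 29.1 and 21.9 FPKM in glands and 1.87, 2.34 and 4.54 in tumours. All tumours were lower, and the highest value was in gland 2 (-2.66, SE 0.28, adjusted p = 0.000454). The part of the B cell, T cell and muscle markers that set gland 2 apart was not tested. Its exons overlap Dcbld2 on the other strand over 26% of their bases, which was at 3.59 ± 0.627 and 1.89 ± 0.301 FPKM. St3gal3, whose upstream window is printed above, was at 14.3, 18.96 and 14.96 FPKM in glands and 4.48, 3.99 and 3.92 in tumours (-1.73, SE 0.14, adjusted p = 0.000168). St3gal2, an enzyme of core 1 and of gangliosides, was at 10.98, 12.97 and 11.5 FPKM in glands and 2.8, 3.29 and 3.03 in tumours (-1.67, SE 0.13). The tumour levels of St3gal2 and St3gal3 were close together and far below all glands.

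St3gal1, an enzyme of core 1, was at 13.6, 10.4 and 12.4 FPKM in glands and 6.68, 8.67 and 14.4 in tumours, with overlap through tumour 3 (adjusted p = 0.349). It passed as lower without tumour 3 (-0.60, adjusted p = 0.0248) and with array weights, over a range of 0.02 to 0.877. St3gal4 was at 15.5 ± 0.722 and 12.4 ± 2.57 FPKM (adjusted p = 0.132). It passed as lower without tumour 3 (-0.47, adjusted p = 0.0102) and with array weights, over a range of 0.00389 to 0.577. St3gal5, which makes the ganglioside GM3, was at 7.41, 9.06 and 7.31 FPKM in glands and 9.13, 11.4 and 26.1 in tumours. Tumour 3 stood apart, and the call was missed (adjusted p = 0.119) but made without tumour 1 (adjusted p = 0.049) and with array weights (range 0.0214 to 0.577). St6gal1, which caps lactosamine on N-glycans, was at 27.2, 19.5 and 21.7 FPKM in glands and 17.6, 21.9 and 28.1 in tumours, with overlapping groups (-0.03, SE 0.20, adjusted p = 0.93). St6gal2 was listed at 0.

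**Figure D4:**
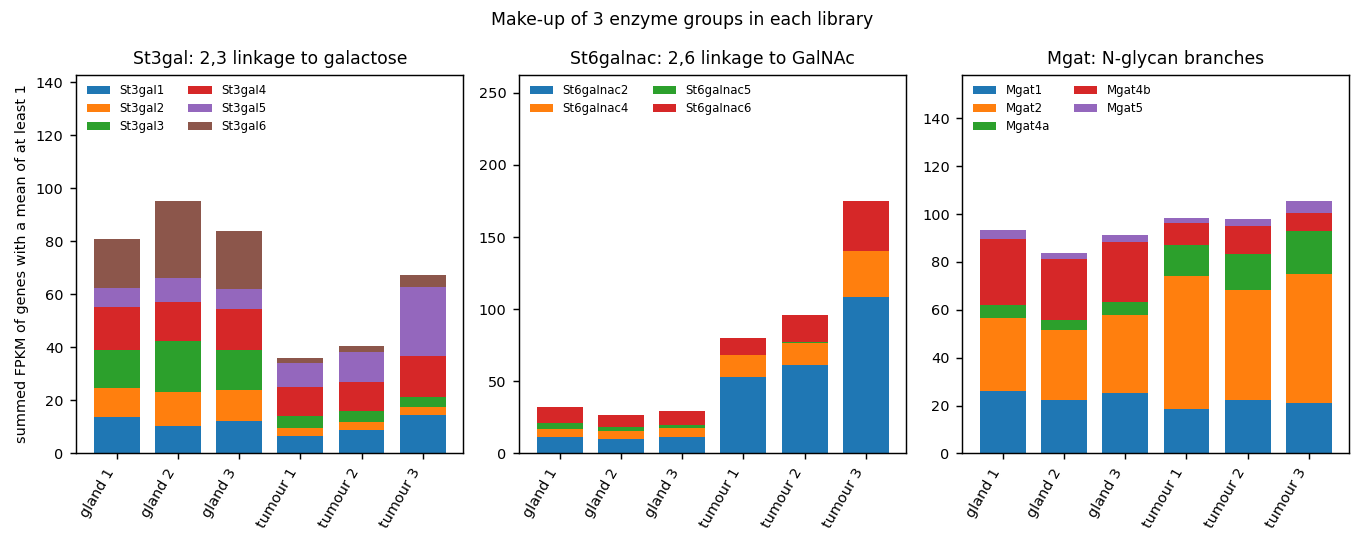
Stacked FPKM of the St3gal, St6galnac and Mgat genes in each library, each panel with its own axis from 0. St3gal sums are lower and St6galnac sums higher in the 3 tumours, and Mgat4a is higher and Mgat4b lower while the Mgat stacks differ less in height. Genes with a mean under 1 FPKM are left out.

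The St6galnac genes link sialic acid to N-acetylgalactosamine of O-glycans or gangliosides, and 3 of the 4 tested rose. St6galnac2 was at 11.2, 10.1 and 11.1 FPKM in glands and 53.2, 61.5 and 109 in tumours. All tumours were far above the glands and tumour 3 was highest (2.61, SE 0.25, adjusted p = 0.000342). St6galnac4, which forms disialyl core 1, was at 5.78, 5.16 and 6.21 FPKM in glands and 14.8, 15.4 and 31.8 in tumours, again with tumour 3 highest (1.61, SE 0.28, adjusted p = 0.0039). St6galnac6, an enzyme of gangliosides, was at 10.8, 8.25 and 9.32 FPKM in glands and 12.1, 18.8 and 34.8 in tumours (1.01, SE 0.34, adjusted p = 0.0484). Its call was lost without any 1 gland or without tumour 2 (adjusted p = 0.0796 to 0.126). It was also lost with no filter (0.0675), at a common sum per library (0.09) and with the replicate block (0.0598). In all, 8 of 16 alternatives ended it, and the lowest adjusted p among them all was 0.00374. Without tumour 3 its log2 fold change was 0.63. On chromosome 2 of mm10, St6galnac4 (32587095 to 32599698) and St6galnac6 (32599709 to 32620806) follow each other on the plus strand with 10 bases between them, so reads that run past the end of the first may count for the second.

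St6galnac5, a ganglioside enzyme known from brain, was at 4.04, 3.31 and 2.73 FPKM in glands and 0.106, 0.11 and 0 in tumours, near 0 in every tumour (-2.01, SE 0.19, adjusted p = 0.000303). St6galnac3 was under the filter with 0.93, 1.21 and 1.44 FPKM in glands and 0, 0.193 and 0 in tumours, and St6galnac1, the sialyl Tn enzyme, was under it in both. The summed St6galnac level was 32.8, 27.97 and 30.9 FPKM in glands and 80.3, 96.03 and 175 in tumours. The summed St3gal level was 81.03, 95.3 and 83.7 FPKM in glands and 35.9, 40.6 and 67.4 in tumours. The groups did not overlap in either sum, and the sums were not tested.

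The St8sia genes add sialic acid to sialic acid. St8sia6, an enzyme of O-glycans, was at 1.97, 1.15 and 2.16 FPKM in glands and 5.32, 5.8 and 25.5 in tumours, with tumour 3 far above the other tumours (1.94, SE 0.54, adjusted p = 0.025). The call was lost without any 1 gland (adjusted p = 0.0563 to 0.0755, range 0.0037 to 0.203), and without tumour 3 the log2 fold change was 1.27. St8sia4, a polysialic acid enzyme of leukocytes and nerve, was at 5.89, 4.92 and 7.48 FPKM in glands and 2.26, 1.79 and 1.2 in tumours, all tumours lower (-1.37, SE 0.21, adjusted p = 0.00224). T cell markers were lower for 6 of 9 genes and higher for 0. Their sums were 55.2 to 192 FPKM in glands and 6.89 to 35.8 in tumours. B cell markers were lower for 1 of 9. Nerve markers were higher for 2 and lower for 4 of 6, with sums of 104 to 129.9 against 138 to 249 FPKM. Macrophage and granulocyte markers were higher for 1 and lower for 4 of 8. They summed to 923 to 1061 FPKM in glands and 3636, 2279 and 476 in tumours 1 to 3. The part of these cells in the St8sia4 result was not tested. St8sia5 was under the filter at 0.158, 2.91 and 0.803 FPKM in glands, highest in gland 2, and was listed at 0 in the tumours. St8sia1 and St8sia2 were under the filter, and St8sia3 and St8sia3os were listed at 0 in all libraries.

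Tumour 3 stood at the end of the tumour range for many members and for many other genes. It was the highest tumour for 11 of the 16 genes that rose (68.8%), beside 46.2% of the 2933 genes called higher among all tested. It was the lowest for 13 of the 16 that fell (81.2%), beside 56.7% of the 3090 called lower. It was the tumour nearest the glands for 2 and 2 members (12.5% each), beside 34.2% and 22.1%. Without tumour 3, 16 members were called higher and 19 lower, beside 3094 and 3308 of all tested genes. Marker sums of several cell types were also lowest in tumour 3. Adipocyte markers summed to 89.8 FPKM there against 290.2 and 292 in tumours 1 and 2, basal markers to 116 against 327 and 309, and fibroblast markers to 129 against 388 and 459. B cell markers summed to 1.4 against 45.6 and 38.2 FPKM. Sums of luminal, nerve and skeletal muscle markers were instead highest in tumour 3. Luminal markers summed to 3571 FPKM there against 3209 and 3164 in tumours 1 and 2, and nerve markers to 249 against 138 and 168. The part of these cells in the tumour 3 values was not tested.

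The donor sugars, their carriers and the proteins and lectins around these enzymes were followed in lists described by counts and medians. Over all tested genes the share called was 21.9% higher and 23.1% lower. Of all tested genes 2933 were called higher, beside 2949 without tumour 1 and 2135 without tumour 2. Called lower were 3090, beside 2174 without gland 3 and 3308 without tumour 3. Of 25 tested genes of sugar nucleotide synthesis 13 were higher, 2 lower and 10 did not pass, with a median log2 fold change of 0.49. Cmas, which activates sialic acid, rose from 35.7 ± 2.38 to 114 ± 20.1 FPKM (1.64, SE 0.14), and Nans, which makes sialic acid phosphate, from 39.99 ± 3.003 to 104 ± 25.01 (1.34, SE 0.18). Gmds, which starts the GDP-fucose route, rose from 13.2 ± 1.34 to 36.9 ± 5.65 FPKM (1.41, SE 0.14). Gne, which starts sialic acid synthesis and was chosen after its values were seen, rose by 0.94 (SE 0.14). Gfpt2, an entry enzyme of the hexosamine route, fell from 12.5 ± 2.51 to 2.07 ± 0.397 FPKM (-2.13, SE 0.18).

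Of 12 Golgi sugar nucleotide transporter genes 6 were higher, 0 lower and 6 did not pass (median 0.39). Slc35a3, a carrier of UDP-N-acetylglucosamine, rose by 0.86 (SE 0.11) and Slc35a2, the UDP-galactose carrier, by 0.76 (SE 0.16). Slc35a1, the carrier of CMP-sialic acid, did not pass (adjusted p = 0.0705), though it passed without tumour 3 (adjusted p = 0.00485) and with array weights (range 0.00307 to 0.303). Of 21 genes of N-glycan transfer and trimming 10 were higher, 3 lower and 8 did not pass (median 0.31), and without tumour 2 6 were higher. Uggt1, the folding sensor, rose by 0.97 (SE 0.11) and Dad1, an oligosaccharyltransferase subunit, by 0.67 (SE 0.10). The mannosidase genes Man2a2 and Man1a fell by 1.71 (SE 0.19) and 1.29 (SE 0.18).

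**Figure D5:**
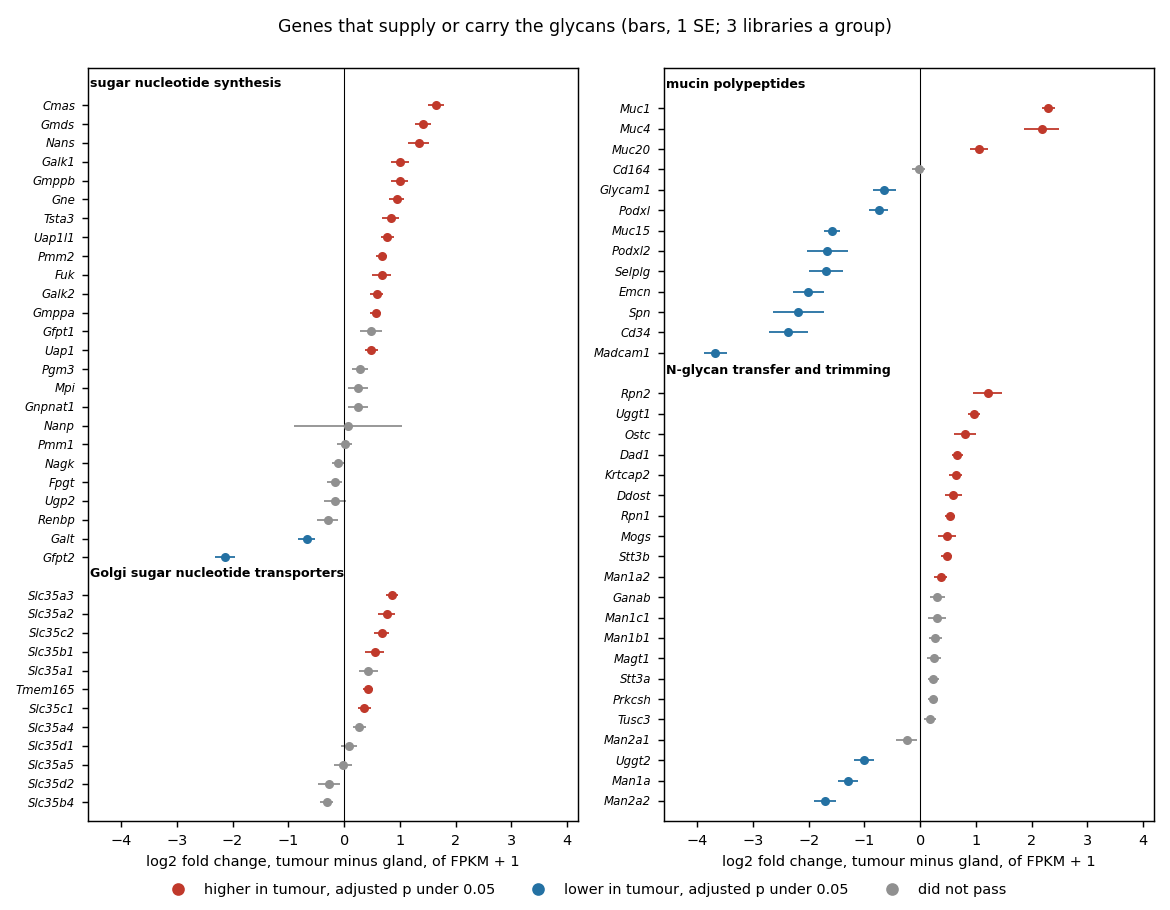
Log2 fold change of FPKM + 1, tumour minus gland, for tested genes of related pathway lists, with bars of 1 SE. Sugar nucleotide genes lie mostly to the higher side (13 of 25 called higher) and mucin-type carriers mostly to the lower side (9 of 13 called lower).

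Of 13 tested genes for proteins that carry mucin-type glycans 3 were higher, 9 lower and 1 did not pass (median -1.58). Muc1, the membrane mucin of luminal cells, rose from 11.2 ± 1.01 to 59.02 ± 4.97 FPKM (2.30, SE 0.11). The luminal marker list holds Muc1 itself, and the part of luminal cells in its rise was not tested. The other two that rose, Muc4 and Muc20, both membrane mucins, did so by 2.18 and 1.05. Muc15, a mucin of milk fat globule membranes, fell from 305 ± 16.8 to 102 ± 17.4 FPKM (-1.58, SE 0.15). Emcn, a sialomucin of endothelium, and Madcam1, a ligand of lymphocyte integrins, fell by 2.01 and 3.67. Endothelial markers, a list that holds Emcn itself, were lower for 8 of 8 genes, and their part here was not tested. Muc5ac, Muc5b, Muc19 and Mucl1 were listed at 0.

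Of 13 tested genes of core 1 synthesis and other O-glycan steps 1 was higher, 4 lower and 8 did not pass, and 7 were lower without tumour 3. C1galt1c1, the chaperone of the core 1 enzyme, rose by 0.46 (SE 0.14, adjusted p = 0.0322), a call lost without any 1 gland (range 0.0228 to 0.248). C1galt1, the core 1 enzyme itself, was at 8.35 ± 0.903 and 11.2 ± 3.19 FPKM and did not pass (adjusted p = 0.181). The Notch-modifying genes Mfng and Lfng fell by 2.89 (SE 0.17) and 1.81 (SE 0.26). Of 8 other transferase genes 3 were lower and 0 higher: B3galnt1 (-1.89), A4galt (-1.57) and Gbgt1 (-1.08), and the count lower was 5 without tumour 3. The call of Gbgt1 was lost without gland 1, without gland 2 or under quantile normalization (adjusted p = 0.0539 to 0.0885). In all, 4 of 15 alternatives ended that call, and the lowest adjusted p among them all was 0.00495. Of 4 tested sulfotransferase genes, Chst2 (1.92) and Chst10 (0.71) rose and Chst1 (-3.88) and Chst7 (-1.43) fell, and the Chst10 call was lost under 10 of 15 alternatives (range 0.00683 to 0.122), among them without any 1 gland and without tumours 1 or 3.

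Of 18 tested lectins that bind glycans 2 were higher, 11 lower and 5 did not pass (median -1.37), and 7 were lower without gland 3. Lgals3 and Lgals9, galectins that bind galactose-bearing chains, rose from 43.6 ± 3.34 to 194 ± 27.5 FPKM (2.12, SE 0.13) and from 52.1 ± 9.69 to 259 ± 8.43 (2.31, SE 0.15). Lgals12, a galectin of fat cells, and Selp, a selectin of endothelium and platelets, fell by 2.47 and 1.54. Of 5 tested genes that remove or change sialic acid, the lysosomal sialidase Neu1 rose by 1.07 (SE 0.13), Cmah, which makes N-glycolylneuraminic acid, fell by 1.67 (SE 0.29), and 3 did not pass, while 2 were higher without tumour 1.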

How the data were processed

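RNA-seq was run by the study on 3 mammary gland and 3 mammary tumour libraries. Per the submitters' processing notes, HISAT2, StringTie and mm10 were used; the sources used here give no versions. The values deposited by the authors are 1 table of 24421 genes, taken here as FPKM, though its header names no unit.

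Values were analysed as log2(FPKM + 1) with limma 3.58.1 in R 4.3.3 (trend, 2-sided, Benjamini-Hochberg adjustment, threshold 0.05) over the 13364 genes whose mean reached 1 FPKM, a fit that was tested on simulated data. All 6 libraries entered the fit with no covariate. The alternatives were a pseudocount of 0.1, no filter, a minimum mean of 5 FPKM, median-of-ratios scaling, quantile normalization, a common sum per library, a replicate block, each library left out, glands 1 and 3 left out together, array weights, a 2-fold threshold, and, added after seeing the data, tumours 1 and 2 averaged. Fold changes on this scale understate changes of low genes.

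The genes and the lists were chosen with earlier results of these data known. Any member may be named. Values per library are given for called members with at least 2-fold change or a group mean of at least 20 FPKM, and for the up to 2 highest members of a family among those not called, or to show a library that stands apart. In pathway lists up to 4 called genes with the smallest p were named, with Lalba; Muc4, Muc20, C1galt1, C1galt1c1, Slc35a1 and Gne were chosen after their values were seen, as were the per-library values of Galnt6, Gcnt4, B3galt1, Mgat3, St3gal1, St6galnac3 and St8sia5. Of the list of sugar nucleotide synthesis, 1 gene is not reported here and is left out of its counts. Gene positions are from GENCODE M21 on mm10, which placed 80 of the 81 genes; St6galnac2 has 2 gene models there.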

Additional observations from a re-analysis of the deposited data

How the results depend on the processing

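Counts of calls and the log2 fold changes of the 53 tested members and of the pathway genes named were recomputed under the alternatives named with the processing; family sums and shares, marker sums and promoter shares were not. No called glycosyltransferase gene changed direction under any of them. Without glands 1 and 3, which leaves gland 2 as the lone gland and assumes that it varies like the other libraries, 8 members were higher and 6 lower, and 760 and 1098 of all tested genes. There 14 of the 32 calls were kept. With a minimum mean of 5 FPKM only 33 members were tested in place of 53, and 13 were higher and 8 lower. Members under that filter could not be called. Of all genes 2464 were higher and 1864 lower there, again with fewer tested. At 2-fold, 1025 of all genes were higher and 1942 lower. Leaving out 1 library gave 11 to 17 members higher and 15 to 19 lower, and 2043 to 3094 and 2174 to 3308 of all tested genes, against 2933 and 3090. Quantile normalization moved the median of all genes from 0.008 to 0.12 and that of the members from -0.03 to 0.20.

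Libraries of the same number did not deviate together (correlations of -0.054, -0.12 and -0.12). The labels do not say whether the numbers pair animals. These correlations cannot decide it, since libraries of a group also differ in marker levels. With the replicate block, 15 members were higher and 16 lower, and 2147 and 2581 of all tested genes. St6galnac6 (adjusted p = 0.0598), C1galt1c1 and Tmem165, a Golgi ion transporter, lost their calls, and 3 in place of 6 transporter genes were higher. By the same deviations and not the design, 0 of 6 libraries correlated best with the library of their own number in the other group. That does not decide pairing either.

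Direction turned only in members that did not pass. Under quantile normalization B3galt6 was 0.30, B3gnt8 0.23, B4galt4 0.19, Galnt4 0.18, Galnt12 0.41 and Gcnt1 0.0425. With array weights B3galt4 was -0.066, B3gnt2 -0.10, B4galt6 -0.0774, Galnt12 0.0692, Gcnt1 0.00721 and Mgat5 -0.0955. Without glands 1 and 3 B4galt4 was 0.15, Galnt4 0.0919, Galnt12 0.23, Gcnt1 0.017 and St6gal1 0.18, and with tumours 1 and 2 averaged, chosen after seeing the data, B4galt4 was 0.0173 and St6gal1 0.0617. Leaving out 1 library at a time gave -0.067 to 0.17 for B3galt4, -0.0126 to 0.22 for B3gnt2, -0.13 to 0.0635 for B4galt4, -0.14 to 0.25 for B4galt6, -0.22 to 0.0943 for Galnt12, -0.12 to 0.0791 for Gcnt1, -0.20 to 0.28 for Mgat5 and -0.19 to 0.13 for St6gal1. The cause was not tested. Low levels and 3 libraries a group limit what can be seen, and read depth is unknown.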
